A study of Rattus norvegicus with 24 samples.

Results

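The genes described here are 6 genes of Schwann cells and myelin, chosen by name: *Mbp*, *Pmp22*, *S100b*, *Ngfr*, *Gap43* and *Sox10*. They are 6 of 15273 gene symbols measured in rat tibialis anterior (TA) muscle, and 11 transcript rows were summed to give them. RNA was sequenced from both TA muscles of 12 adult male Wistar rats, with 3 rats at each of 2, 10, 20 and 30 days of daily SpillOver resistance training. In every rat an implanted pulse generator stimulated the left hindlimb, with the cathode under the common peroneal nerve and the anode deep to the tibial nerve, and the muscles were collected shortly after the last bout. The trained group at each time point is the left TA of 3 rats. Control muscles are the contralateral right TA of the same rats, which was not stimulated and had no electrode at its nerve. The main test compared each trained group with the contralateral muscles of all 12 rats pooled, and the pairing within rats was used in an alternative fit. Only the left limb was operated on for electrodes, so stimulation, training and the surgery cannot be told apart in these libraries. The series' design text gives 4 animals for each time point, and 3 for each are analysed here.

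Schwann cells are the glia of peripheral nerve. Myelinating Schwann cells wrap single axons in compact myelin, which holds myelin basic protein and PMP22, under the direction of the transcription factor SOX10. Non-myelinating and injured Schwann cells lower their myelin genes and carry the neurotrophin receptor p75 (NGFR) and the growth-associated protein GAP43, while the calcium-binding protein S100B is made by Schwann cells of both kinds. A piece of muscle holds Schwann cells only in its intramuscular nerve branches and at the neuromuscular junctions, where terminal Schwann cells cap the nerve endings, so their RNA is a small part of the total. In such bulk samples fewer cells of a type and less RNA per cell cannot be told apart.

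Values are transcripts-per-million-type (TPM-type) values, scaled by the authors to 1 total per library and here divided by 1 scaling factor per library. Whether they were corrected for transcript length is not given in the sources used here, so the order of the genes describes the deposited values and not numbers of transcripts. In the 12 contralateral muscles *Pmp22* had the highest value at 8.93 ± 1.65 (SD, n = 12), followed by *Mbp* at 2.00 ± 0.898, *S100b* at 1.58 ± 0.541, *Gap43* at 0.391 ± 0.221, *Sox10* at 0.119 ± 0.0948 and *Ngfr* at 0.0795 ± 0.0646. *Pmp22* was above *Mbp* in 12 of the 12 muscles, and their ranges did not touch. *Mbp* was above *S100b* in 9 of the 12 and *Sox10* above *Ngfr* in 8 of the 12, so neither of these neighbours was separated beyond the spread between muscles.

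The level decided which genes could be judged. A gene entered the test where its value was at least 1 in at least 3 of the 24 muscles, as it was for 11196 genes. *Pmp22* was at 1 or more in 24 muscles, *S100b* in 22 and *Mbp* in 18. *Gap43*, *Ngfr* and *Sox10* did not reach 1 in any muscle, and these rows are too low to judge. Their values are given below with the test run without the filter, as a description of low values.

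**Figure D1:**
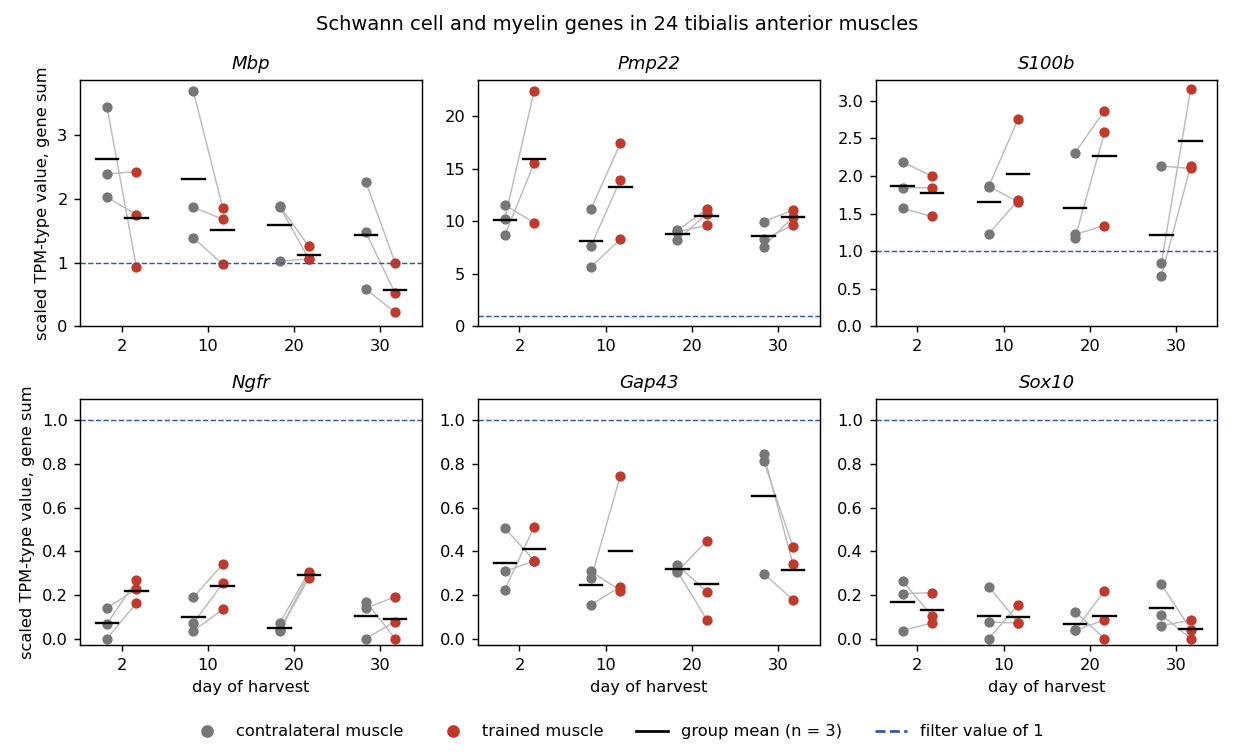
Scaled TPM-type value (vertical axis, linear) of each gene in every muscle against day of harvest, with grey points for contralateral and red points for trained muscles, a line joining the muscles of 1 rat and a black bar for each group mean (n = 3). *Mbp* was lower in the trained muscle of 10 rats and *Pmp22* higher in that of 11, whereas all values of *Ngfr*, *Gap43* and *Sox10* lie under the dashed filter value of 1.

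*Mbp* encodes myelin basic protein, which holds the cytoplasmic faces of the myelin membrane together. It lies at chr18:79326738-79437311 on the plus strand of Rnor_6.0 and has 5 protein-coding transcript rows. In the contralateral muscles *Mbp* ranged from 0.582 to 3.702, with a median of 1.89. Trained muscles had 0.934, 2.43 and 1.76 at 2 days, 1.87, 1.68 and 0.978 at 10 days, 1.26, 1.06 and 1.06 at 20 days, and 0.997, 0.518 and 0.219 at 30 days. The 30-day trained muscles were therefore at the low end: 2 of the 3 were under every contralateral muscle, and the remaining one was above only the lowest of them. The right muscles of the same 3 rats had 2.27, 1.48 and 0.582, which is also where the lowest contralateral value was found.

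Relative to the 12 pooled contralateral muscles, *Mbp* fell by 0.90 on the log2(value + 1) scale at 30 days (SE 0.23, limma, adjusted p = 0.00735), and the changes at 2, 10 and 20 days were -0.13, -0.21 and -0.44 (adjusted p = 0.722, 0.532 and 0.195). At 30 days 20.6% of all tested genes passed the same threshold of an adjusted p under 0.05, and 9.46% passed it with a lower value. The 4 comparisons share the pooled contralateral muscles. With each rat as a block, so that left is compared with right within a rat, the 30-day change was -0.60 with an adjusted p of 0.0729, which does not pass, where 12.3% of genes did. Against the 3 contralateral muscles of 30 days alone, where 10% of genes passed, the adjusted p was 0.188, and without trained replicate 3 of 30 days the pooled change was -0.72 with an adjusted p of 0.0812.

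On average over the 4 time points *Mbp* fell by 0.42 (SE 0.15, adjusted p = 0.0255 by limma), and the trained muscle was the lower one in 10 of 12 rats. That average was called at 0.00439 with the rat as a block. It was not called without trained replicate 3 of 30 days (adjusted p = 0.0509) or without trained replicate 1 of 2 days (adjusted p = 0.0516). Of all tested genes, 40.2% passed the threshold on this average, 20.3% with a lower and 19.9% with a higher value, and 43.4% passed it with the rat as a block. The 4 trained groups were not shown to differ from one another in *Mbp* (F test, adjusted p = 0.223), so a course over time was not established. The share of genes passing that F test was 12%.

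The 5 *Mbp* transcript rows could not be read singly. Mbp-201 to Mbp-204 share the span chr18:79406381-79437311, and Mbp-205 starts upstream at 79326738. In 20 of 24 muscles the ratio of Mbp-204 to Mbp-203 stood within 1% of 2.22, while the share of *Mbp* assigned to Mbp-201 ran from 1.72% to 92.4% between muscles. The gene sum is used here for that reason.

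**Figure D2:**
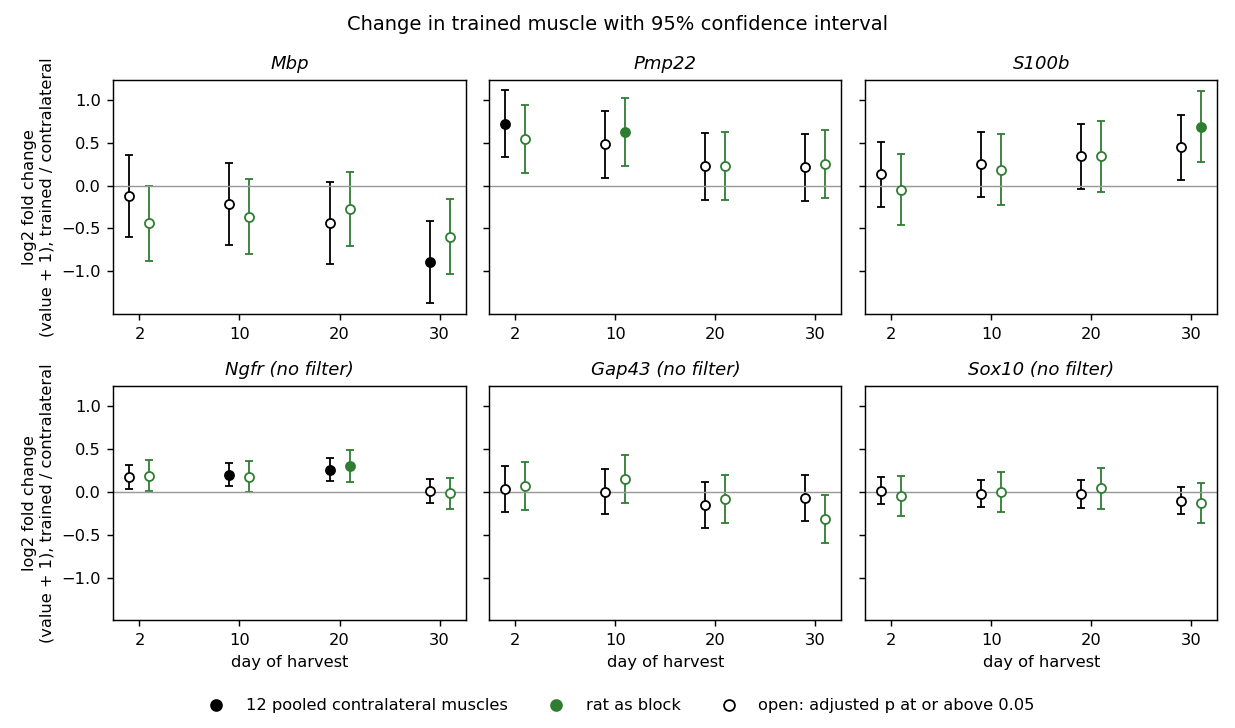
Log2 fold change of value + 1, trained over contralateral (vertical axis), against day of harvest, with 95% confidence intervals, from the comparison with 12 pooled contralateral muscles (black) and with the rat as block (green), where filled points have an adjusted p under 0.05. *Mbp* at 30 days and *Pmp22* at 2 days are filled only in black, whereas *Pmp22* at 10 days and *S100b* at 30 days are filled only in green. *Ngfr*, *Gap43* and *Sox10*, which are too low to judge, are drawn from the fits without the filter. There *Ngfr* is filled in black at 10 days and in both colours at 20 days.

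*Pmp22* encodes peripheral myelin protein 22, a membrane protein of compact myelin that was first cloned as a growth arrest gene of fibroblasts and is also made outside nerve. The contralateral muscles ranged from 5.66 to 11.5, with a median of 8.83. Trained muscles had 9.86, 22.4 and 15.5 at 2 days, 17.4, 13.96 and 8.30 at 10 days, 9.60, 10.7 and 11.1 at 20 days, and 11.1, 9.62 and 10.4 at 30 days. At 2 and at 10 days 2 of the 3 trained muscles were above every contralateral muscle. At 20 and 30 days all of them lay inside the contralateral range.

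*Pmp22* rose by 0.72 at 2 days (SE 0.19, limma, adjusted p = 0.00565), when 28.9% of tested genes passed and 15.4% were higher. The changes at 10, 20 and 30 days were 0.48, 0.23 and 0.21 (adjusted p = 0.0576, 0.438 and 0.469), against 28.9%, 21.4% and 20.6% of tested genes called. With the rat as a block the 2-day change was 0.54 and missed the threshold (adjusted p = 0.0514), while the 10-day change was 0.62 and passed (adjusted p = 0.0293). In that fit 21.6%, 20.1% and 17.4% of genes were called at 2, 10 and 20 days. Without trained replicate 2 of 2 days, the muscle at 22.4, the 2-day change was 0.45 with an adjusted p of 0.156. Without trained replicate 3 of 10 days, the muscle at 8.30, the 10-day change was 0.76 with an adjusted p of 0.00708. Against the 3 contralateral muscles of its own day, where 19.6% of genes passed, the 2-day adjusted p was 0.131.

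On average over the 4 time points *Pmp22* was higher by 0.41 (SE 0.12, adjusted p = 0.00791 by limma), and in the trained muscle of 11 of 12 rats. This was the member whose average kept its call without any 1 of the 24 muscles, with changes between 0.34 and 0.48 and adjusted p up to 0.019. With the rat as a block its adjusted p was 0.00267. The F test among the 4 trained groups gave an adjusted p of 0.338.

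*Pmp22* lies on the plus strand of chromosome 10 and has alternative promoters, of which the upstream one is known for use in myelinating Schwann cells. The table holds Pmp22-202 at chr10:49538588-49568583 and Pmp22-201 at chr10:49541051-49568584, whose starts are 2463 bases apart. Pmp22-201, with the downstream start, had 4.83 ± 1.39 (SD, n = 12) in contralateral muscles and 9.86 ± 2.64, 7.81 ± 3.15, 7.04 ± 0.238 and 6.88 ± 1.92 (SD, n = 3) in trained muscles at 2, 10, 20 and 30 days. It was higher in the trained muscle of 10 of 12 rats. Pmp22-202, with the upstream start, had 4.09 ± 1.26 in contralateral muscles and 6.07 ± 4.73, 5.42 ± 2.42, 3.44 ± 1.02 and 3.48 ± 1.59 in trained muscles, and was higher in 5 of 12 rats.

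Tested over all transcripts, Pmp22-201 rose by 0.91 at 2 days (limma, adjusted p = 0.00628) and by 0.60 on average (adjusted p = 0.00257). The average change of Pmp22-202 was 0.06 (adjusted p = 0.836). The median share of *Pmp22* given to Pmp22-201 was 52.2% in contralateral and 64.0% in trained muscles. Whether the 2 rows differ in their change was not tested, and the division of reads between models that share most of their exons is an estimate.

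**Figure D3:**
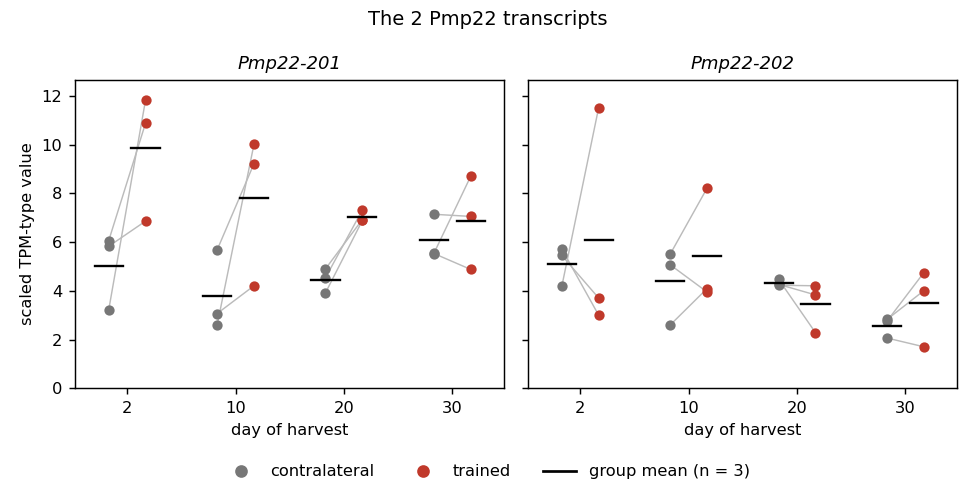
Scaled TPM-type value (vertical axis) of the 2 *Pmp22* transcripts in every muscle against day of harvest, with grey points for contralateral and red for trained muscles, lines joining the muscles of 1 rat and black bars for group means (n = 3). Pmp22-201 was higher in the trained muscle of 10 rats and Pmp22-202 in that of 5.

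The bases before the upstream start are shown because the 2 *Pmp22* rows differ in where transcription begins. RefSeq, on the GRCr8 assembly, gives *Pmp22* a span of 30010 bases, which is nearer to the 29996 of Pmp22-202 than to the 27534 of Pmp22-201. The 250 bases before the RefSeq start, chr10:48294682-48294931 on the plus strand of GRCr8, are printed below, with capitals for the letters CATTCC, the other strand of GGAATG, a core read by TEAD factors.
Pmp22: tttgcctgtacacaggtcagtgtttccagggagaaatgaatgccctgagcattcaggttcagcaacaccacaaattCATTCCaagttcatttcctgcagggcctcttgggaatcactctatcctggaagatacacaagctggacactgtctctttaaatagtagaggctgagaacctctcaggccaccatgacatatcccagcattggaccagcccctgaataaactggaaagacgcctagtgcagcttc
The match begins 174 bases before the start, and 12.1% of the 33469 rat promoters of this length hold GGAATG on either strand. Neither ACAAAG, the core of SOX sites, nor GCGTGGG, the core of EGR sites, nor the AP-1 letters TGANTCA was found in this window on either strand, and they are held by 16.3%, 3.67% and 6.34% of all promoters. These are matches of letters and were not tested against expression. Of the 6 genes, 3 have an entry in the promoter table.

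*S100b* encodes the S100B calcium-binding protein, a common marker of Schwann cells that adipocytes are also known to make. It has 1 row, at chr20:13130636-13142857 on the minus strand of Rnor_6.0. The contralateral muscles ranged from 0.669 to 2.31, with a median of 1.71. Trained muscles had 1.84, 2.00 and 1.46 at 2 days, 2.76, 1.66 and 1.68 at 10 days, 2.87, 1.34 and 2.58 at 20 days, and 2.10, 3.16 and 2.14 at 30 days. The groups overlapped at each time point, with 1 or 2 trained muscles above every contralateral muscle at 10, 20 and 30 days.

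The changes in *S100b* were 0.13, 0.25, 0.34 and 0.45 at 2, 10, 20 and 30 days (limma, adjusted p = 0.632, 0.343, 0.208 and 0.0903), none of which passed. The 95% interval at 30 days ran from 0.06 to 0.83. With the rat as a block the 30-day change was 0.69 with an adjusted p of 0.0343, when the contralateral muscles of 2 of the 3 rats, at 0.844 and 0.669, were the lowest of the 12. On average over the time points the change was 0.29 (SE 0.12) with an adjusted p of 0.0499, which lies at the threshold and was lost on leaving out any of 12 muscles, up to an adjusted p of 0.1. It was also lost with a pseudocount of 0.1 (adjusted p = 0.0579), without the filter (adjusted p = 0.0611) and among single transcripts (adjusted p = 0.0646). The average kept its call with the rat as a block (adjusted p = 0.026), where 43.4% of genes passed. It was also kept, near the threshold, on the values as deposited (adjusted p = 0.0455) and with time-matched controls (adjusted p = 0.0483). *S100b* was higher in the trained muscle of 8 of 12 rats, and its adjusted p among the trained groups was 0.754.

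*Ngfr* encodes p75, the low-affinity neurotrophin receptor of repair and immature Schwann cells. It has 1 row, at chr10:83389847-83408062 on the minus strand. Contralateral muscles ranged from 0 to 0.189, with a median of 0.0689. Trained muscles had 0.226, 0.163 and 0.267 at 2 days, 0.340, 0.252 and 0.133 at 10 days, 0.278, 0.306 and 0.294 at 20 days, and 0.192, 0.0778 and 0 at 30 days. The 3 trained muscles of 20 days were above every contralateral muscle, and the trained muscle was the higher one in 11 of 12 rats.

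Without the filter the test gave *Ngfr* changes of 0.18, 0.20, 0.26 and 0.01 at 2, 10, 20 and 30 days (limma, adjusted p = 0.0566, 0.0286, 0.0072 and 0.932) and 0.16 on average (SE 0.04, adjusted p = 0.00379). In that test 23.2%, 24.2%, 16.6% and 16.1% of 15273 symbols were called at the 4 time points and 33.6% on average. With the rat as a block, a fit chosen after the data were seen, the adjusted p was 0.186 at 10 days, 0.0343 at 20 days and 0.00936 on average, where 17.1%, 15.8%, 12.7% and 8.59% of symbols were called at the 4 times and 35.9% on average. At this level a pseudocount of 1 understates the fold, and 3 muscles were listed at 0, so the row stays among those too low to judge whatever its p.

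*Gap43*, the growth cone protein of regrowing axons that denervated Schwann cells also make, has 1 row at chr11:58624198-58717915 on the plus strand. Its contralateral values ran from 0.155 to 0.846, with a median of 0.308. The trained muscles at 30 days had 0.421, 0.342 and 0.178, and those of all 4 times ran from 0.0871 to 0.747. The groups overlapped throughout, and the trained muscle was higher in 5 of 12 rats. Its average change was -0.05 without the filter (95% interval -0.22 to 0.12, limma, adjusted p = 0.716).

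*Sox10*, the transcription factor that Schwann cells need at every stage, has 1 row at chr7:120393254-120403524 on the minus strand. Its contralateral values ran from 0 to 0.263, with a median of 0.0923, and 3 of the 24 muscles were listed at 0. The trained muscles at 30 days had 0.0412, 0.0836 and 0. It was higher in the trained muscle of 6 of 12 rats, and its average change was -0.03 (95% interval -0.13 to 0.07, adjusted p = 0.653 by limma without the filter). Neither *Gap43* nor *Sox10* was called at any time point, and values this low do not show that the genes were unchanged.

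The 12 contralateral muscles were compared among themselves over the 4 time points. None of the 3 tested members passed that F test (adjusted p = 0.691 for *Mbp*, 0.917 for *Pmp22* and 0.821 for *S100b*). Without the filter the adjusted p was 0.957 for *Sox10*, 0.999 for *Ngfr* and 0.666 for *Gap43*, whose values are too low to judge. It was passed by 17 of 11196 genes, or 0.152%, and 1012 had an unadjusted p under 0.05.

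Across the 24 muscles, genes whose pattern was close to that of *Mbp* included *Gpat4* (Pearson r = 0.827 on the log2 scale) and *Mcfd2* at 0.79. On deviations from the 5 group means they included *Klf2* at 0.773 and *Gpat4* at 0.766. For *Pmp22* the nearest were *Slc20a2* at 0.896, *Hmgn1* at 0.877 and *Tsc22d1* at 0.859. On deviations they were *Tmem182* at 0.845, *Scamp2* at 0.828 and *Slc20a2* at 0.816. For *S100b* the nearest were *Pdlim1* at 0.75, *Acsl5* at 0.705 and *Ifitm1* at 0.697. On deviations they were other genes, *H2az1* at 0.75, *Wdr70* at 0.729 and *Cuedc2* at 0.718. These are descriptions over 24 muscles that share 12 rats and a day of harvest. Between the members, *Mbp* and *Pmp22* had r = 0.302 on values and 0.719 on deviations, and *Mbp* and *S100b* had 0.043 and 0.564.

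Other myelin genes are given by a list that holds *Mbp* and *Pmp22* too. Of 22 genes of myelin proteins and lipids, 21 were in the table and 10 were tested. At 2 days 2 of the 10 rose and 1 fell, at 10 days 2 rose, at 20 days 1 rose, and at 30 days 1 rose and 2 fell, with medians of 0.05, -0.07, -0.11 and -0.12 against -0.01, -0.03, -0.03 and -0.01 over all tested genes. Of all tested genes, 15.4%, 15.6%, 11.7% and 11.1% were higher and 13.5%, 13.3%, 9.64% and 9.46% lower at these times. *Tspan2*, a tetraspanin known from oligodendrocytes, rose by 0.54, 0.64 and 0.67 at 10, 20 and 30 days; without trained replicate 3 of 10 days, its 10-day adjusted p was 0.203. *Plekhb1* fell by 0.49 at 2 days, a call lost without trained replicate 1 (adjusted p = 0.0532) or 3 (adjusted p = 0.0772), and was lower in the trained muscle of all 12 rats. *Cnp*, the cyclic nucleotide phosphodiesterase of non-compact myelin, named after its values were seen, rose by 0.53 and 0.66 at 2 and 10 days. Its 2-day call was lost without trained replicate 2 (adjusted p = 0.118) or 3 (adjusted p = 0.124), and its 10-day call without trained replicate 1 (adjusted p = 0.0559). *Mal* and *Prx*, chosen likewise, had changes between -0.33 and 0.07 that did not pass at any time. The genes closest to Schwann cells alone were near the bottom of the range: *Mag* was at 0 in 16 muscles, *Gjb1* in 14, *Pmp2* in 10 and *Cldn19* in 9.

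Of 16 Schwann cell transcription factors and signalling genes, 12 were in the table and 3 were tested. *Egr2*, which drives myelination and is also an immediate early gene of other cells, was 0.0993 in contralateral muscles and rose by 1.06, 0.93, 1.49 and 0.68 at 2, 10, 20 and 30 days. No contralateral muscle reached 1, so *Egr2* passed the filter only through the trained muscles and had to differ. *Nab2*, a corepressor of EGR proteins, rose by 1.02, 1.09, 0.96 and 0.62, and each was higher in the trained muscle of 12 of 12 rats. *Zeb2* had changes between -0.08 and 0.24, none of which passed against the pooled muscles, though at 2 days its adjusted p was 0.016 with the rat as a block. The neuregulin receptor *Erbb3* was too low to test, with means of 0.162 in contralateral and 0.414, 0.332, 0.212 and 0.301 in trained muscles.

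Of 23 genes of repair and non-myelinating Schwann cells, 19 were in the table and 6 were tested, with 3, 2, 1 and 1 higher and 1, 0, 0 and 0 lower at 2, 10, 20 and 30 days. Of all tested genes 15.4%, 15.6%, 11.7% and 11.1% were higher at these times, so 1 of 6 at 20 and 30 days is near the background. *Jun*, a regulator of the repair Schwann cell and an immediate early gene of most cells, rose by 1.77 and 0.81 at 2 and 10 days. *Ncam1*, a cell adhesion molecule that denervated fibres also make, rose by 0.79 at 2 days. *Ccn3* rose by 0.57 at 30 days and *Cntf*, a neurotrophic factor of Schwann cells, fell by 0.48 at 2 days. The calls of *Ncam1*, *Ccn3* and *Cntf* were lost without a single trained muscle: without replicate 3 the adjusted p of *Ncam1* was 0.289 and that of *Ccn3* 0.152, and without replicate 2 that of *Cntf* was 0.262. With the rat as a block the adjusted p was 0.177 for *Ccn3* and 0.0514 for *Cntf*. *Matn2*, chosen after its values were seen, rose by 0.37, 0.31 and 0.34 at 2, 10 and 20 days, and no contralateral muscle reached a value of 1. It thus passed the filter only through the trained muscles, and its part of the higher counts at these times is a description. The 1 higher gene at 20 days was *Matn2*. Each of its calls was lost without 1 trained muscle (highest adjusted p = 0.0682, 0.327 and 0.159, without replicates 1, 1 and 3). Those at 10 and 20 days were also lost with the rat as a block (adjusted p = 0.0557 and 0.0814). Of 14 genes known to respond to denervation, 11 were tested, and 6, 4, 1 and 0 were higher with none lower at 2, 10, 20 and 30 days. *Gadd45a* rose by 2.07 at 2 days, *Runx1* by 2.06, *Myog* by 1.41 and *Chrnd* by 0.70. The share of all tested genes that were higher was 15.4%, 15.6%, 11.7% and 11.1%, so the count at 20 days is near the background. *Runx1* was at 1 or more in 2 contralateral muscles and so passed the filter only through the trained ones, and its call at 2 and 10 days counts as no support. The call of *Chrnd* was lost with the rat as a block (adjusted p = 0.0554) and without trained replicate 2 (adjusted p = 0.121) or 3 (adjusted p = 0.105).

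Of 23 neurotrophic ligands and receptors, 21 were in the table and 7 were tested. *Cntfr*, the receptor chain for CNTF, fell by 1.09, 1.50, 1.92 and 2.00 at 2, 10, 20 and 30 days. *Sort1*, which encodes sortilin, a partner of p75 in binding proneurotrophins, fell by 0.43, 0.74, 0.99 and 1.28. Both were lower in the trained muscle of 12 of 12 rats. At 2 days both calls were lost without trained replicate 2 (adjusted p = 0.0958 for *Cntfr* and 0.147 for *Sort1*) or 3 (0.0707 and 0.0503). *Nrtn*, the GDNF family ligand neurturin, fell by 0.63 at 10 days, with an adjusted p of 0.3 without trained replicate 1, 0.0803 without trained replicate 3 and 0.188 with the rat as a block.

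Of 12 axon and neuron genes, 6 were in the table and 3 were tested. *Stmn2*, a microtubule protein of neurons, rose by 0.62, 0.87 and 1.17 at 2, 20 and 30 days and had a change of 0.52 at 10 days (adjusted p = 0.076, and 0.0281 with the rat as a block). Its 2-day adjusted p was 0.512 without trained replicate 2. *Uchl1* was at 1 or more in no contralateral muscle and passed the filter only through trained ones. Its trained values at 10 days were 3.02, 3.64 and 0.102, the last below the 0.322 of that rat's contralateral muscle. It rose by 1.11 at 10 days, and by 1.77 without trained replicate 3; without replicate 1 or 2 it no longer passed the filter. *Prph* was not called, and *Nefm* was at 0 in 11 muscles.

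**Figure D4:**
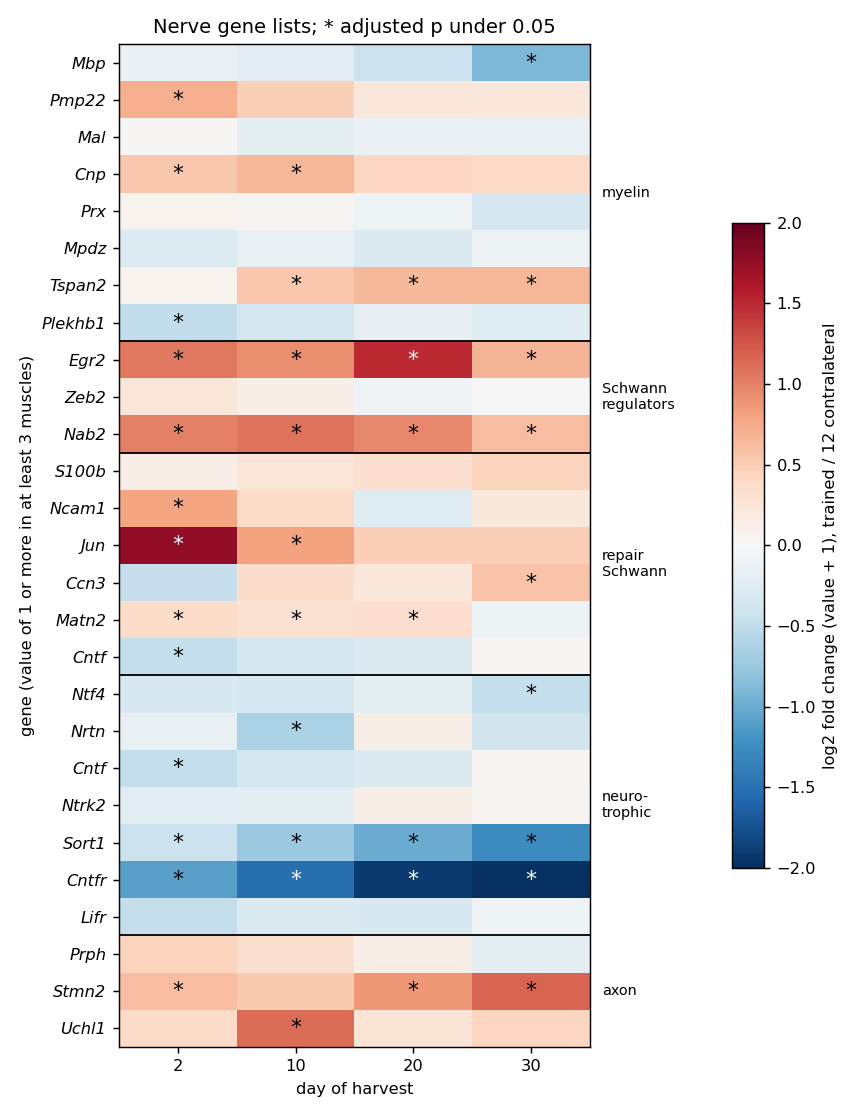
Log2 fold change of value + 1 in trained muscle against the 12 contralateral muscles (colour, from -2 to 2) for tested genes of 5 nerve gene lists (rows) at each day of harvest (columns), with a star for an adjusted p under 0.05. *Mbp* is blue with a star at 30 days, and *Sort1* and *Cntfr* are blue with a star in every column.

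Markers of other cells moved in the same muscles. Of all tested genes, 15.4%, 15.6%, 11.7% and 11.1% were higher at 2, 10, 20 and 30 days. The shares with a lower value were 13.5%, 13.3%, 9.64% and 9.46%. Of 10 tested fibroblast genes (of 11 listed), 7, 9, 9 and 9 were higher at 2, 10, 20 and 30 days and none lower. Their summed value ran from 97.2 to 298.6 in contralateral muscles and was 342.0, 563.4 and 474.0 at 2 days, 1089.9, 677.6 and 575.8 at 10 days, 671.5, 633.0 and 695.7 at 20 days, and 418.4, 479.9 and 494.6 at 30 days. The trained muscles were above every contralateral muscle, and *Col3a1* went from 56.9 ± 18.7 (SD, n = 12) to 194.5 ± 43.4 (SD, n = 3) at 2 days. *Dcn*, with the highest value of the list in contralateral muscles at 64.4 ± 21.7 (SD, n = 12), was at 66.6 ± 12.4 (SD, n = 3) at 2 days (limma, adjusted p = 0.781, and 0.00696 with the rat as a block). Of 9 tested macrophage and leukocyte genes (of 13 listed), 7, 8, 9 and 9 were higher, and the trained muscles' sum of 29.8 to 77.2 lay above the contralateral range of 10.3 to 28.0. The gene with the highest value was *C1qc*. *Adgre1*, called at 20 and 30 days, was at 1 or more in 0 contralateral muscles and passed the filter only through the trained ones. Of 5 tested adipocyte genes (of 6 listed), 0, 2, 2 and 2 were higher, and *Fabp4*, with the highest value, rose by 0.60, 0.66 and 0.56 at 10, 20 and 30 days (adjusted p = 0.113 at 10 days with the rat as a block, and 0.0658 at 30 days without trained replicate 2). Fibroblasts can make *Pmp22* and adipocytes *S100b*, and the part of these cells in the *Pmp22* and *S100b* values was not tested.

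Of 10 tested muscle fibre genes, 0, 2, 0 and 0 were higher and 4, 4, 5 and 4 lower, and *Pvalb*, the calcium buffer of fast fibres, fell by 0.98, 2.27, 3.23 and 3.16 (at 2 days, adjusted p = 0.0629 without trained replicate 2 and 0.0685 without 3). Of 4 tested perineurial genes, 2, 3, 2 and 1 were higher, with *Dlk1* up by 1.81 and *Sfrp4* by 1.39 at 10 days. *Slc2a1*, the glucose transporter of perineurium and of other cells, rose by 1.36 at 2 days. *Dlk1* was at 1 or more in 1 contralateral muscle and *Slc2a1* in 2, so both passed the filter only through the trained muscles, and their part of this count is a description. Of 9 endothelial genes, 0, 4, 6 and 3 were higher and 1, 0, 0 and 0 lower, with *Cldn5* up by 0.96 at 20 days. Of 7 mural genes, 3, 3, 2 and 2 were higher and 1, 0, 0 and 0 lower, with *Pdgfrb* up by 0.83 at 10 days. Of 7 satellite cell genes, 4, 3, 2 and 1 were higher and 1, 0, 0 and 0 lower, with *Vcam1* up by 1.08 at 10 days. Over all tested genes the shares at the 4 times were 15.4%, 15.6%, 11.7% and 11.1% higher. The shares lower were 13.5%, 13.3%, 9.64% and 9.46%. The higher count of satellite cell genes at 30 days is thus near the background. So are the lower counts of endothelial, mural and satellite cell genes at 2 days. *Vcam1* was at 1 or more in 2 contralateral muscles and *Myf5* in 1, so these too passed the filter only through the trained muscles. Their part of the satellite cell counts is likewise a description.

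The make-up of the libraries also moved with time. Mitochondrial mRNA took 27.8% to 43.7% of the total in contralateral muscles, where the highest was contralateral replicate 1 of 30 days. In trained muscles it took 24.9% to 28.45% at 2 days, 23.4% to 27.4% at 10 days, 31.1% to 35.5% at 20 days and 39.9% to 43.9% at 30 days. The 3 trained muscles of 10 days thus lay below every contralateral muscle, whereas those of the other times overlapped the contralateral range. At 30 days that overlap was with contralateral replicate 1 of 30 days alone. The next highest contralateral muscle, replicate 2 of 30 days, was at 34.6%, below all 3 trained muscles of 30 days. The part of this make-up in the changes of *Pmp22* and *Mbp* was not tested. On the values as deposited, without the scaling factor, the median change of all genes at 30 days was -0.18 and not -0.01. On those values the 30-day change was -0.96 for *Mbp* (adjusted p = 0.00295), 0.01 for *Pmp22* (adjusted p = 0.973) and 0.29 for *S100b* (adjusted p = 0.225), and *Pmp22* passed at 10 days (adjusted p = 0.0224).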

How the data were processed

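Poly-A RNA libraries of 24 TA muscles were sequenced by the authors, whose reads were mapped by STAR (run within Partek Flow) on the Rnor_6.0 assembly and assigned to Ensembl transcript models, and the submitters' processing notes also list DESeq2. The authors deposited TPM-type values for 20027 transcripts, with a total of 634431 in each library, so the deposited values hold no depth per sample and no counting interval is given. A further gene-level table (4635 rows, with none of the 6 genes) and the authors' own comparisons, which hold fold changes and p-values, were not used. Values were divided by median-of-ratios factors (0.778 to 1.14, from 16230 transcripts above 0 in all muscles) and summed by gene symbol. The study's methods name median of ratios too, but here it was applied to values already scaled to 1 total per library. After the filter, log2(value + 1) was fitted with limma 3.58.1 (R 4.3.3) in 5 groups, with the contralateral muscles pooled as in the study, and p-values were adjusted by the Benjamini-Hochberg method over all tested genes. The fit was tested on simulated data. The alternatives were another pseudocount, filter, threshold, scaling or control group, single transcripts, the rat as a block, and each muscle left out.

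The 2 muscles of each rat are paired by the rat number in the labels. Deviations from group means of the same rat had a median correlation of 0.174 (0.0277 to 0.343, 12 pairs), against 0.00835 for rats of other days. The members, gene lists and tests were chosen with earlier results of these data known. Genes were named by a rule: the members, in each list the 4 called genes with the largest change and the 2 with the highest mean, and for each tested member the 3 genes most like it. *Cnp*, *Mal*, *Prx*, *Matn2*, *Erbb3*, *Mag*, *Gjb1*, *Pmp2*, *Cldn19* and *Nefm* fall outside it and were chosen after their values were seen. *Adgre1*, named for how it passed the filter, falls outside the rule too. Results for some genes of these lists are not reported here, although the list counts include them.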

Additional observations from a re-analysis of the deposited data

Results flagged for a closer look

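No member of the 6 differed among the 4 trained groups by the F test of limma at an adjusted p under 0.05, and the groups of 3 muscles are too small for a test of single outlying samples. Among the other genes named, those below differed between time points in their change from the same pooled contralateral muscles, with the adjusted p of the F test in brackets. Among genes of Schwann cells and neurotrophic signalling these were *Egr2* (0.00861), *Jun* (0.00105), *Ccn3* (0.0195), *Matn2* (0.0395) and *Sort1* (0.00781). Among genes that respond to denervation they were *Gadd45a* (0.000772), *Runx1* (0.00892), *Myog* (0.00378), *Chrnd* (0.0474) and *Chrnb1* (0.0184). Among perineurial genes they were *Dlk1* (1.38e-05), *Sfrp4* (0.0103) and *Slc2a1* (0.000161). Among markers of vessels, adipocytes and muscle fibres they were *Cldn5* (0.0408), *Cdh5* (0.00439), *Emcn* (0.0429), *Pdgfrb* (0.0428), *Fabp4* (0.00382) and *Pvalb* (0.00029). Of these 19 genes 1, *Dlk1*, passed the F test with the rat as a block (adjusted p = 0.033), and the other 18 had adjusted p between 0.0549 and 0.555; over all genes the count fell from 1345 to 128. *Egr2* and *Matn2* were at 1 or more in no contralateral muscle, *Dlk1* in 1, and *Runx1* and *Slc2a1* in 2, so these genes passed the filter only through the trained muscles and their F tests are given as a description.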

How the results depend on the processing

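The deposited values keep no read depth, *Gap43*, *Ngfr* and *Sox10* are too low to judge, and 3 muscles per group limit every comparison. With the rat as a replicate block, *Pmp22* lost its call at 2 days and gained one at 10 days, and *S100b* was called in place of *Mbp* at 30 days; no other member call among the 3 tested genes changed under the block.

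Of the 3 tested members, 1, 0, 0 and 1 were called at 2, 10, 20 and 30 days and 3 on average. At 2 days the count was 0 under the replicate block and with time-matched controls. At 10 days it was 1, *Pmp22*, on the values as deposited and under the replicate block. Without the filter the count over all 6 genes was 1 at 10 days and 1 at 20 days, and that gene was *Ngfr*, which is too low to judge. At 30 days it was 0 with time-matched controls and in single transcripts. On average it was 1 at an adjusted p threshold of 0.01, and 2 with a pseudocount of 0.1 and in single transcripts, where *S100b* was lost. Without the filter *S100b* was lost on average too, and *Ngfr* was called. Leaving out single muscles gave 0 to 1 at 2, 10 and 30 days, 0 at 20 days and 1 to 3 on average. None differed among the trained groups, and 1 did on the values as deposited.

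Over all genes, 3235, 3240, 2393 and 2304 were called at the 4 times. An adjusted p threshold of 0.01 gave 1958, 2050, 1420 and 1296. Time-matched controls gave 2007, 1589 and 1121 at 10, 20 and 30 days, and the replicate block 1377 at 30 days. Leaving out single muscles gave 1492 to 3496 at 2 days, 2130 to 3295 at 10 days, 1730 to 2500 at 20 days, 1469 to 2438 at 30 days and 4115 to 4614 on average, where 4500 were called. The trained groups differed in 1345 genes, 2533 on the values as deposited, 571 at 0.01, 128 under the replicate block and 680 to 1605 on leaving out single muscles. The contralateral groups differed in 17 genes, 10 on the values as deposited, 6 at 0.01, 279 at an unadjusted p of 0.01, 8 in single transcripts and 4 to 20 on leaving out single muscles.

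Reversed values, all uncalled, were *Mbp* at 2 days on leaving out single trained muscles (-0.317 to 0.0965, above 0 without trained replicate 1), *S100b* at 2 days under the replicate block and with time-matched controls (-0.0493), and, without the filter and with the block, *Sox10* at 2 days (-0.0472) and 20 days (0.0431) and *Ngfr* at 30 days (-0.0175). The causes were not tested. Leaving out contralateral muscles one by one, other than replicate 1 of 30 days, and the block without the filter were chosen after the data were seen. A count model was not run, as no counts were used here.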
